A study of Mus musculus with 12 samples.

Results

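The clearance of dying cells was examined through 10 genes of apoptotic cell uptake in sorted myeloid cells of mouse bone marrow. The genes were picked by symbol: the receptor tyrosine kinases Axl, Mertk and Tyro3, the secreted proteins Gas6, Pros1 and Mfge8, the surface receptor Cd300lf, and the intracellular adaptors Elmo1, Dock1 and Gulp1. All 10 were found by symbol among the 56953 genes of the deposited tables. RNA was sequenced from 12 libraries of female C57BL/6J mice at 8 weeks of age, in 4 groups of 3: eYFP+ macrophages, eYFP- macrophages, Ly6Chi monocytes and Ly6Clo monocytes. Macrophages were sorted as F4/80hi cells, and monocytes were separated by their surface level of Ly6C. Per the study's methods, the mice were Rank cre/+;R26.eYFP fl/+, in which Cre recombinase is made from the Rank locus, and a cell in which it has acted, like all its descendants, carries the fluorescent protein eYFP. In this design eYFP+ marks macrophages of embryonic origin, and eYFP- is taken as derived from adult hematopoietic stem cells. An embryonic macrophage in which the reporter did not recombine would be counted as eYFP-. No treatment was given, and whether libraries came from single or pooled mice is not stated in the sources used here. P-values therefore measure the spread between these libraries, which may in part be technical.

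A dying cell exposes phosphatidylserine on its outer membrane, and phagocytes bind it directly through surface receptors or indirectly through soluble bridging proteins. Gas6 and protein S (Pros1) bridge phosphatidylserine to the kinases Axl, Mertk and Tyro3, whereas Mfge8 bridges it to integrins. Inside the phagocyte, Elmo1 and Dock1 form a complex that activates the small GTPase Rac, which drives the membrane around the corpse. Bone marrow macrophages are known for taking up the nuclei that red cell precursors expel and for removing aged neutrophils, both by way of phosphatidylserine.

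Axl, Mertk and Gas6 were all higher in macrophages than in monocytes, while Mfge8 parted the macrophage groups, so the 250 bases before the start of these 4 genes are shown. They are RefSeq promoter sequences of build GRCm38.p6, a build other than that of the counts, and are printed 5′ to 3′ on the strand of the gene. Capitals mark matches on either strand to the PU.1 core GAGGAA or the GC box GGGCGG, and no marked matches overlapped. The windows lie at chr7:25788734-25788983 on the minus strand (Axl), chr2:128698665-128698914 on the plus strand (Mertk), chr8:13494536-13494785 on the minus strand (Gas6) and chr7:79149061-79149310 on the minus strand (Mfge8).
Axl: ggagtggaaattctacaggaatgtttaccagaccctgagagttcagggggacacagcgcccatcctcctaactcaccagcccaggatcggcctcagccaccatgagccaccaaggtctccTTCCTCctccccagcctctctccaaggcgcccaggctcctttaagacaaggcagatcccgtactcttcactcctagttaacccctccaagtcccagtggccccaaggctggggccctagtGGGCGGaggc
Mertk: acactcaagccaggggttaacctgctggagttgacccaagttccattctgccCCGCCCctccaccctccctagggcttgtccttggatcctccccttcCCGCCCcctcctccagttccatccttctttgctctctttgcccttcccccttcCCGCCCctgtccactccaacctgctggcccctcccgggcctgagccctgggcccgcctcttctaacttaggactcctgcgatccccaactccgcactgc
Gas6: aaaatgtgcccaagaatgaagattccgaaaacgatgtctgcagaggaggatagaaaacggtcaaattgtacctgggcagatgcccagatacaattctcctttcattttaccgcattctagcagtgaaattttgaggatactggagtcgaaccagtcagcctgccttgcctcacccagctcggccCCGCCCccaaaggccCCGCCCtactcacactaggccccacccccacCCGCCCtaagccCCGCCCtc
Mfge8: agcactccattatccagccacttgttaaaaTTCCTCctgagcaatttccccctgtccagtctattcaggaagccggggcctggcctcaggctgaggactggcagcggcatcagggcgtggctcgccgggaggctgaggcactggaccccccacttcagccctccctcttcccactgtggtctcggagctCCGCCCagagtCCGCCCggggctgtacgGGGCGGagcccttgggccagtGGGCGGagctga
The GC box was found before 9 of the 10 genes, against 32.7% of the 32851 windows of this length in the promoter table. The PU.1 core was found before 4 of the 10 (Axl, Mfge8, Cd300lf and Dock1), against 23.3% of windows. The nuclear receptor half-site AGGTCA and the AP-1 core TGANTCA, searched on both strands, were found before 0 of the 10, against 14.0% and 6.7% of windows. Such matches describe the letters and do not show binding.

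The labels were checked against markers before the genes were read. Values in TPM (counts divided by gene length and scaled to the same sum in each library) were summed over each marker list. The 8 bone marrow macrophage markers, among them Vcam1, Mrc1 and Cd163, summed to 28345 to 29948 TPM in eYFP+ and 18889 to 24452 TPM in eYFP- macrophages, against 480 to 1083 TPM in monocytes. The 7 monocyte markers summed to 8684 to 9915 TPM in Ly6Chi, 740 to 1562 TPM in Ly6Clo and at most 94.5 TPM in macrophages. The 10 markers of neutrophils and their precursors summed to more than the monocyte list in every monocyte library, with 15881 to 24018 TPM in Ly6Chi and 6747 to 15914 TPM in Ly6Clo monocytes. S100a8 was the largest part, with 7320 to 11061 TPM in Ly6Chi and 2927 to 7653 TPM in Ly6Clo monocytes. The part of neutrophil RNA in these sums was not tested. Depth was 26390927 to 48618187 counts, and 2 libraries stood apart in base composition. In Ly6Clo replicate 2, the fifth of genes with the highest GC content (2587 genes) had a median log2 ratio of -1.06 to the other Ly6Clo libraries, and the fifth with the lowest had 0.49. In eYFP+ replicate 1 these medians were -0.58 and 0.27. Fewer genes were also detected there: 16434 in Ly6Clo replicate 2 against 22254 and 24769 in the other Ly6Clo libraries, and 22496 in eYFP+ replicate 1 against 26858 and 27424. Low detection was not confined to them. In eYFP- replicate 1, 21330 genes were detected against 26432 and 23858, and its GC medians were -0.02 and -0.051. Results that rest on Ly6Clo replicate 2 and eYFP+ replicate 1, called GC-poor here, are given with and without them.

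The main separation lay between macrophages and monocytes. Axl, Mertk, Gas6 and Cd300lf were higher in macrophages, Pros1, Mfge8 and Dock1 were lower, and Elmo1 and Gulp1 were not called. Tyro3 was too rare to be tested, so 9 of the 10 genes were. The test was the DESeq2 Wald test of the 2 macrophage groups, averaged, against the 2 monocyte groups, averaged, called at an adjusted p under 0.05. Of all tested genes 20.7% were called higher and 15.3% lower in macrophages, against 4 and 3 of the 9 members. edgeR's quasi-likelihood test called the same 7 members. In these bulk samples fewer cells of a type and less RNA per cell cannot be told apart. Markers of other cells moved with this comparison: 10 of 10 erythroid, 6 of 10 T and NK cell, 4 of 6 tested platelet and 5 of 11 tested stromal and endothelial markers were called higher in macrophages, and 7 of 10 neutrophil markers lower. The erythroid list summed to 9021 to 35236 TPM in macrophages and 363 to 1417 TPM in monocytes, and the part of these cells' RNA in the member differences was not tested.

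**Figure D1:**
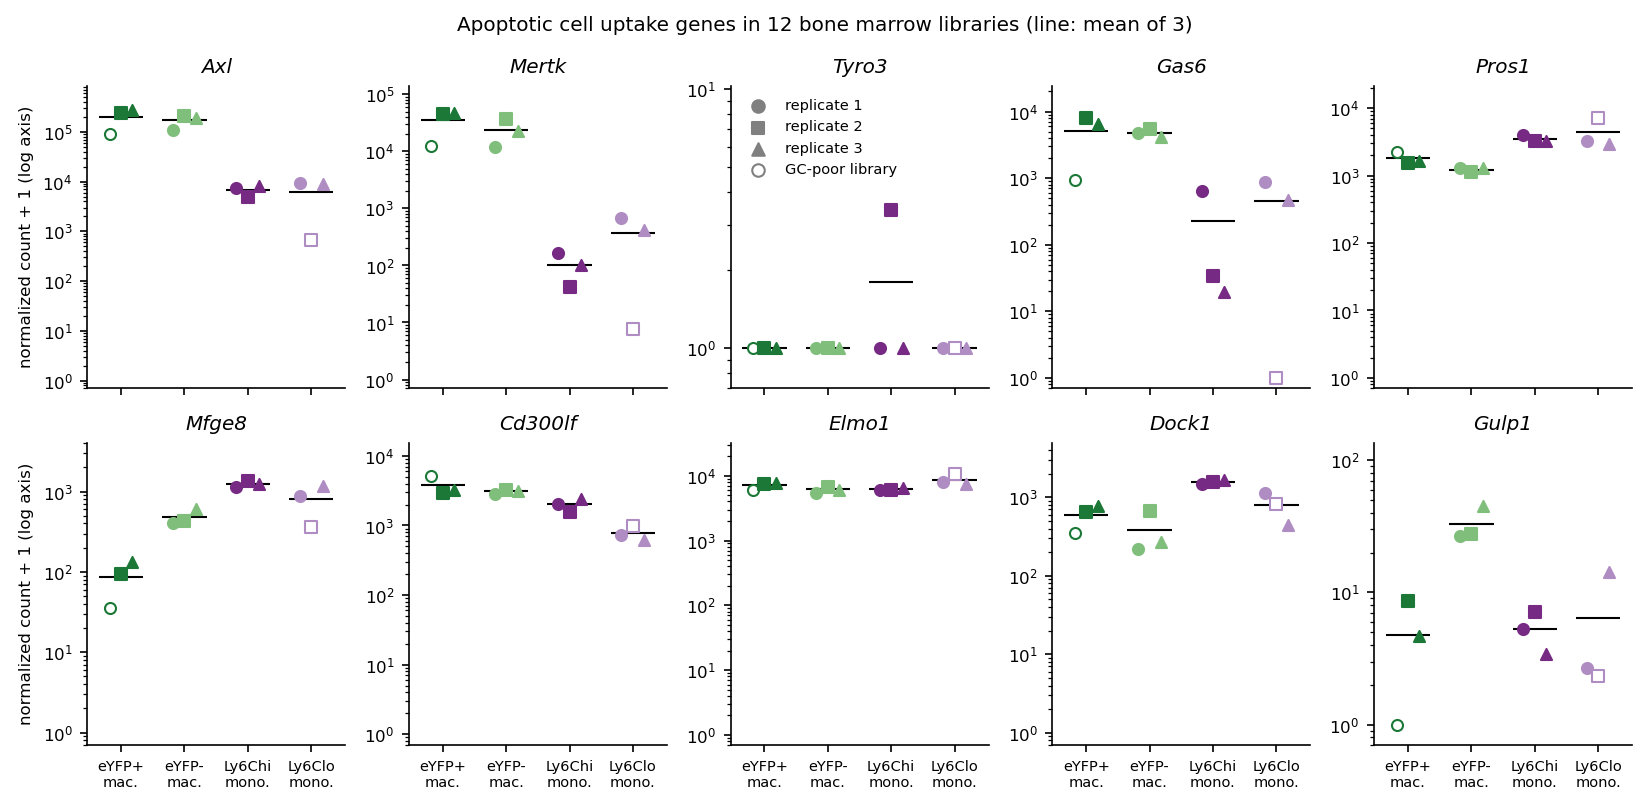
Normalized counts plus 1 of the 10 genes on a log axis, with 1 point for each library, 1 shape for each replicate number and a line at the mean of the 3 libraries of a group. Open points are the GC-poor libraries, eYFP+ replicate 1 and Ly6Clo replicate 2. Axl, Mertk and Gas6 lie highest in the macrophages, Mfge8 lies lowest in eYFP+ macrophages, and Tyro3 had counts in 1 Ly6Chi library alone.

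Axl is a receptor tyrosine kinase that binds Gas6. Its normalized counts, which are counts scaled by DESeq2 for the size of each library, were 92147, 238977 and 278604 in eYFP+ macrophages and 107992, 210918 and 192076 in eYFP- macrophages. They were 7404, 4902 and 8269 in Ly6Chi monocytes and 9354, 658 and 8784 in Ly6Clo monocytes. Every macrophage library thus lay above every monocyte library, and replicate 1 was the lowest of both macrophage groups. The log2 fold change of macrophages over monocytes was 4.83 ± 0.51 (SE; DESeq2 adjusted p = 3.63e-20). Ordered by mean, Ly6Clo and Ly6Chi monocytes did not differ beyond their spread (DESeq2 adjusted p = 0.953), and neither did eYFP- and eYFP+ macrophages (DESeq2 adjusted p = 1). The step between Ly6Chi monocytes and eYFP- macrophages was 4.63 ± 0.71 in log2 units (SE; DESeq2 adjusted p = 2.03e-09), a pair of groups in which 25.5% of tested genes were called in either direction. The low Ly6Clo value came from the GC-poor replicate 2, with 0.0725 times the mean of the other Ly6Clo libraries. Without both GC-poor libraries the log2 difference of Ly6Chi minus Ly6Clo moved from 0.13 ± 0.71 to -0.40 ± 0.31 (SE), not called either way.

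In TPM, which allows genes to be compared, Axl was the leading member in macrophages. It reached 2327 ± 1029 TPM (SD, n = 6) in macrophages and ranked between place 31 and place 109 among all genes of a macrophage library. In monocytes it had 75.2 ± 38.5 TPM (SD, n = 6) and ranked between 1393 and 7674. Axl TPM in Ly6Chi and Ly6Clo monocytes was 3.33% and 3.13% of the macrophage mean. The macrophage marker list stood at 2.02% and 3.59% of its macrophage mean in these groups, and Vcam1, itself a gate of the macrophage sort, at 0.144% and 0.574%. The part of macrophage RNA in the monocyte values was not tested.

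Mertk, a kinase that binds both Gas6 and protein S, showed the largest fold difference of the 9 tested members. It had 12408, 45768 and 46710 normalized counts in eYFP+ and 11880, 36687 and 23031 in eYFP- macrophages. The values were 162, 40.1 and 102 in Ly6Chi monocytes and 674, 6.70 and 412 in Ly6Clo monocytes. Macrophages and monocytes did not overlap, and again replicate 1 was the lowest of both macrophage groups. The log2 fold change of macrophages over monocytes was 7.23 ± 0.67 (SE; DESeq2 adjusted p = 2.78e-25). Mertk TPM in Ly6Chi and Ly6Clo monocytes was 0.311% and 1.16% of the macrophage mean, between the share of Vcam1 and that of the macrophage marker list. Of the neighbouring groups in the order of means, Ly6Clo monocytes and eYFP- macrophages differed by 6.03 ± 0.95 in log2 units (SE; DESeq2 adjusted p = 5.47e-09), where 26.8% of tested genes were called. The macrophage groups did not differ beyond their spread (DESeq2 adjusted p = 1).

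Whether Mertk differed between monocytes depended on 1 library. With all libraries, Ly6Chi minus Ly6Clo was -1.84 ± 0.96 in log2 units (SE; DESeq2 adjusted p = 0.25). Without Ly6Clo replicate 2 it was -2.42 (DESeq2 adjusted p = 0.00266), and without both GC-poor libraries it was -2.42 ± 0.50 (SE; DESeq2 adjusted p = 3.77e-05; edgeR adjusted p = 0.0237). In that replicate Mertk stood at 0.0123 times the mean of the other Ly6Clo libraries, although its longest transcript has a GC content of 48.1%, between the medians of the GC-poorest (41.15%) and the GC-richest (57.15%) genes described above. A correction for GC content over all genes left the difference at -1.86 (DESeq2 adjusted p = 0.217). The same library held 2820 TPM of Cd209a, the lead marker of the dendritic cell list, against 562 and 549 TPM in the other Ly6Clo libraries. The list without Cd209a ran the other way, with a sum of 52.5 TPM there against 109 and 97.9 TPM, and so did Flt3 (7.08 against 42.1 and 42.7 TPM). The part of these markers' cells in the Mertk value was not tested.

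Tyro3, the third kinase of the family, was nearly absent. It had 2 counts in Ly6Chi replicate 2 and 0 counts in the other 11 libraries. A count of 0 allows up to 3 counts out of the depths given above, a limit that covers counting error only. Axl made up 84.0% to 90.2% of the summed TPM of the 3 kinases in macrophage libraries and 93.3% to 99.1% in monocyte libraries. The TPM of Axl was 5.27 to 9.17 times that of Mertk within macrophage libraries and 14.0 to 123 times within monocyte libraries, so the ranges did not overlap.

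Gas6, the ligand of all 3 kinases, was higher in macrophages, as Axl and Mertk were. It had 926, 8047 and 6422 normalized counts in eYFP+ and 4815, 5381 and 4072 in eYFP- macrophages. Monocyte values were scattered: 633, 32.8 and 18.2 in Ly6Chi and 864, 0 and 475 in Ly6Clo monocytes. The lowest macrophage value, in the GC-poor eYFP+ replicate 1, lay just above the highest monocyte value, in Ly6Clo replicate 1. The log2 fold change of macrophages over monocytes was 3.95 ± 1.20 (SE; DESeq2 adjusted p = 0.00387; edgeR adjusted p = 0.0189), with the largest error of the called members. Without Ly6Chi replicate 1 it was 5.53 (DESeq2 adjusted p = 9.06e-06). Without both GC-poor libraries an extreme count left DESeq2 with no adjusted p, the log2 difference being 3.87 ± 0.90 (SE), and edgeR gave 3.85 (edgeR adjusted p = 0.00393). No neighbouring groups were called by DESeq2, including Ly6Clo monocytes and eYFP- macrophages (DESeq2 adjusted p = 0.124). limma called that step, at 4.11 on the log2(TPM + 1) scale (limma adjusted p = 0.018) and 5.27 on the log2(TPM + 0.1) scale (limma adjusted p = 0.0462).

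Stromal cells also make Gas6. Per the study's gating, macrophages and monocytes were taken from CD45+ cells, and stromal and endothelial cells from CD45- cells. The stromal and endothelial marker list is given beside Gas6. Its 12 markers summed to 41.6 TPM in Ly6Chi replicate 1, where Gas6 was high, and to 7.48 and 9.26 TPM in the other Ly6Chi libraries. In Ly6Clo libraries the sum was 67.2 to 120.9 TPM, in eYFP+ macrophages 75.3 to 111.7 TPM and in eYFP- macrophages 121 to 136 TPM, and 0 of the 12 markers were at 0 throughout a group. Gas6 TPM in Ly6Clo monocytes was 8.54% of the macrophage mean, and the stromal list stood at 77.4% of its macrophage mean there. Most of that sum was Pecam1, with 48.1 to 101 TPM in Ly6Clo libraries, and without it the list stood at 24.0%. Cxcl12, a chemokine of marrow stroma, was high in the monocyte libraries where Gas6 was high: it had 28.6, 0.43 and 0.69 TPM in Ly6Chi and 11.9, 1.29 and 11.4 TPM in Ly6Clo monocytes, in replicate order. The list without Pecam1 gave 33.5, 2.09 and 2.95 TPM in Ly6Chi and 21.4, 5.99 and 19.5 TPM in Ly6Clo monocytes, so it too moved with Gas6. In macrophages they did not: Cxcl12 had 6.07, 13.2 and 7.62 TPM in eYFP+ and 46.2, 34.2 and 62.9 TPM in eYFP- libraries, without overlap, and the list without Pecam1 gave 39.0 to 66.3 and 68.5 to 86.6 TPM, while Gas6 overlapped between the origins. The part of stromal RNA in the Gas6 values was not tested.

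Pros1 encodes protein S, a plasma anticoagulant that also bridges phosphatidylserine to Mertk and Tyro3, and it ran opposite to Gas6. It had 2248, 1553 and 1622 normalized counts in eYFP+ and 1278, 1127 and 1271 in eYFP- macrophages, and 4018, 3233 and 3263 in Ly6Chi and 3264, 7082 and 2894 in Ly6Clo monocytes. All monocyte libraries were above all macrophage libraries, and the highest value was in the GC-poor Ly6Clo replicate 2. The log2 fold change of macrophages over monocytes was -1.40 ± 0.26 (SE; DESeq2 adjusted p = 8.03e-07) and -1.28 ± 0.13 (SE; DESeq2 adjusted p = 2.61e-21) without both GC-poor libraries. The difference of eYFP+ minus eYFP- macrophages, 0.56 ± 0.37 (SE) on the log2 scale, was not called (DESeq2 adjusted p = 0.825). Between eYFP+ macrophages and Ly6Chi monocytes, the next groups in order, the step was 0.96 ± 0.37 (SE; DESeq2 adjusted p = 0.0375), where 28.7% of tested genes were called. That call was lost without independent filtering (DESeq2 adjusted p = 0.0786) and when either of eYFP+ replicates 2 and 3 or any Ly6Chi replicate was left out, with DESeq2 adjusted p from 0.0833 to 0.16.

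The balance of the 2 kinase ligands in TPM thus differed in direction between the cell classes. Gas6 TPM was 4.15 to 6.72 times Pros1 TPM in 5 of 6 macrophage libraries and 0.534 times in the GC-poor eYFP+ replicate 1. In the 6 monocyte libraries the ratio was 0 to 0.343, so Pros1 was the higher ligand in each. The ratio is formed within a library and its level rests on the gene lengths used for TPM.

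**Figure D2:**
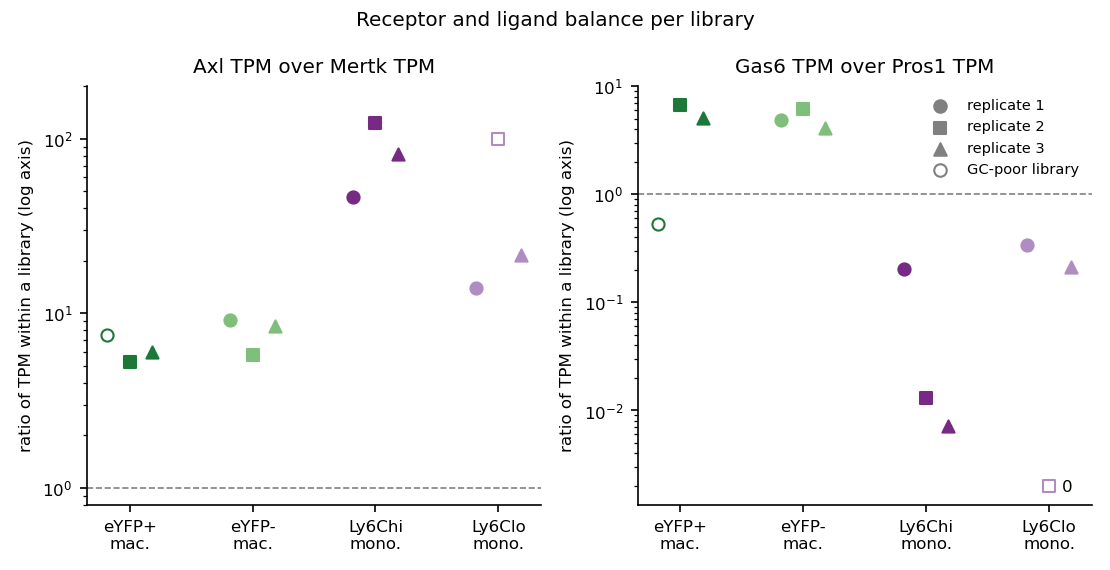
Ratio of Axl to Mertk (left) and of Gas6 to Pros1 (right) in TPM within each library, on a log axis with a dashed line at 1; open points are the GC-poor libraries, and the ratio of 0 in Ly6Clo replicate 2 is drawn at the foot of the axis and marked. Axl exceeded Mertk in all 12 libraries, and Gas6 exceeded Pros1 in 5 macrophage libraries and in 0 monocyte libraries.

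Mfge8 encodes the bridging protein that links phosphatidylserine to the integrins of the phagocyte. It had 35, 93.4 and 131 normalized counts in eYFP+ macrophages and 407, 434 and 597 in eYFP- macrophages. Ly6Chi monocytes held 1121, 1351 and 1256, and Ly6Clo monocytes held 867, 364 and 1173. The eYFP+ libraries were below all 9 others, and the GC-poor Ly6Clo replicate 2, the lowest monocyte library, lay below all eYFP- libraries, whereas the other 5 monocyte libraries lay above them. The log2 fold change of macrophages over monocytes was -2.29 ± 0.36 (SE; DESeq2 adjusted p = 2.18e-09). The order of means was eYFP+, eYFP-, Ly6Clo, Ly6Chi, and Ly6Clo monocytes and eYFP- macrophages were not told apart with all libraries (0.74 ± 0.51 on the log2 scale, SE; DESeq2 adjusted p = 0.295). With a correction for GC content that step was 0.96 (DESeq2 adjusted p = 0.0415). Without both GC-poor libraries it was 1.13 (DESeq2 adjusted p = 0.000168; edgeR adjusted p = 0.00477), and without Ly6Clo replicate 2 alone it was 1.14 (DESeq2 adjusted p = 0.0308).

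Cd300lf, a receptor of the CD300 family that binds phosphatidylserine, was higher in macrophages and differed between the monocyte groups. It had 5161, 2920 and 3278 normalized counts in eYFP+ and 2785, 3272 and 3176 in eYFP- macrophages, 2013, 1575 and 2417 in Ly6Chi and 737, 985 and 611 in Ly6Clo monocytes. The 3 levels did not overlap: each macrophage library was above each Ly6Chi library, and each of these above each Ly6Clo library. The log2 fold change of macrophages over monocytes was 1.45 ± 0.23 (SE; DESeq2 adjusted p = 2.89e-09). Ly6Chi monocytes and eYFP- macrophages were not told apart by DESeq2 with all libraries (DESeq2 adjusted p = 0.157). They were by limma, at 0.75 on the log2(TPM + 1) scale (limma adjusted p = 0.0374), and with both GC-poor libraries left out (0.58 on the log2 scale; DESeq2 adjusted p = 0.0157; edgeR adjusted p = 0.0262).

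Of the engulfment adaptors, only Dock1 was called between macrophages and monocytes. Elmo1, the scaffold of the Rac-activating complex, had 5498 to 7821 normalized counts in the 6 macrophage libraries and 6022 to 10776 in the 6 monocyte libraries, and the log2 fold change was -0.15 ± 0.17 (SE; DESeq2 adjusted p = 0.547). None of its neighbouring groups were told apart, with DESeq2 adjusted p from 0.434 to 0.977, among them eYFP+ macrophages and Ly6Clo monocytes, where 26.1% of tested genes were called. Dock1, the exchange factor that partners Elmo1, had 348, 652 and 765 normalized counts in eYFP+, 219, 660 and 272 in eYFP-, 1458, 1574 and 1653 in Ly6Chi and 1119, 817 and 446 in Ly6Clo libraries. The Ly6Chi libraries were above all 9 others, and Ly6Clo libraries overlapped with macrophages. Dock1 was lower in macrophages (log2 difference -1.23 ± 0.35, SE; DESeq2 adjusted p = 0.00214), while no step between neighbouring groups was called (DESeq2 adjusted p from 0.239 to 0.929).

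Gulp1, an adaptor known from the uptake of apoptotic cells through Stab2 and Lrp1, was rare. It had 0, 7.63 and 3.70 normalized counts in eYFP+ and 25.6, 26.8 and 44.4 in eYFP- macrophages, 4.24, 6.07 and 2.43 in Ly6Chi and 1.70, 1.34 and 13.2 in Ly6Clo monocytes. The eYFP- libraries were above all others. Macrophages and monocytes were not told apart (1.20 ± 0.79 on the log2 scale, SE; DESeq2 adjusted p = 0.244), except without Ly6Clo replicate 3, where the log2 fold change was 2.11 (DESeq2 adjusted p = 0.0349).

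**Figure D3:**
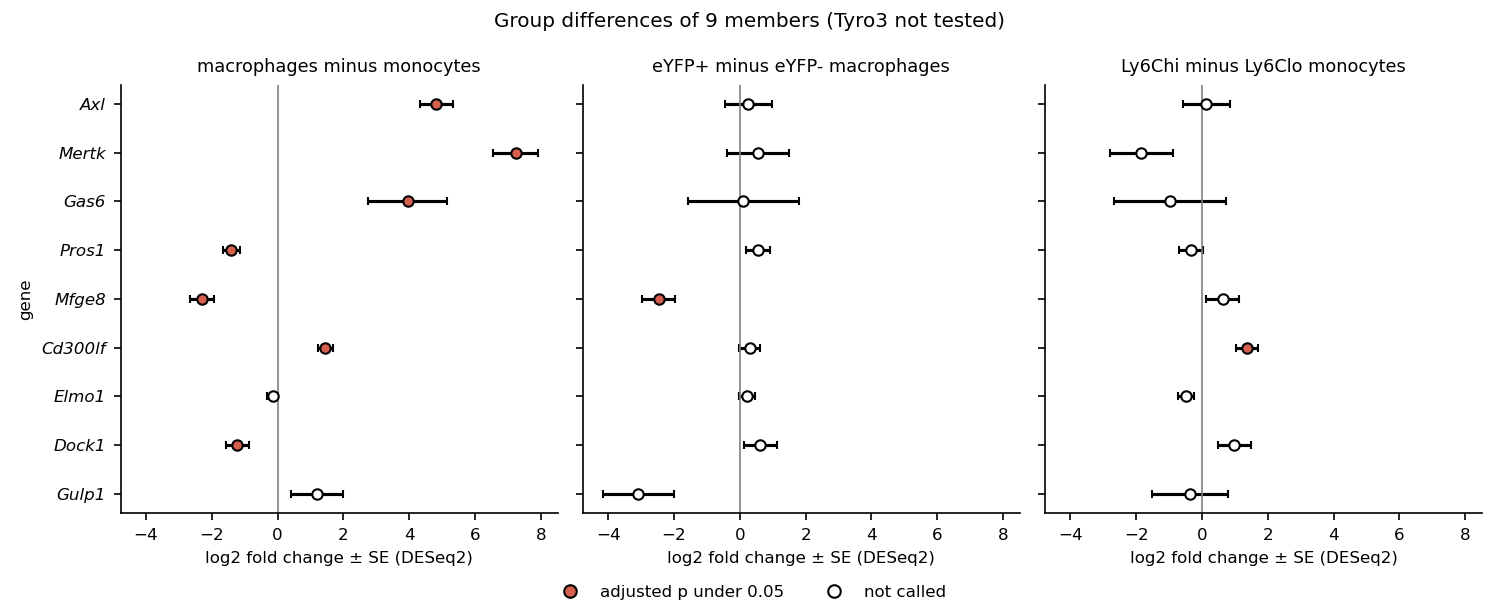
DESeq2 log2 fold changes of the 9 tested members with their SE, for macrophages minus monocytes, eYFP+ minus eYFP- macrophages and Ly6Chi minus Ly6Clo monocytes, on a shared scale; filled points passed an adjusted p under 0.05. The first comparison has 7 filled points, the second only Mfge8 and the third only Cd300lf.

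Expression was then compared between the macrophages of both origins, the central comparison of the study. Only Mfge8 was called among the members, as lower in eYFP+ macrophages, at -2.47 ± 0.51 (SE) in log2 units, with an adjusted p of 0.000287 by DESeq2. Over all tested genes 0.156% were called higher and 1.92% lower in eYFP+ macrophages, so 1 of 9 members lower is set against the latter. The study's text names Mfge8 from these same samples, so its call here is not independent evidence. edgeR's quasi-likelihood test, which called 0.328% of its tested genes lower, did not call Mfge8 with all libraries (edgeR adjusted p = 0.0698) and called it without both GC-poor libraries (-2.09 on the log2 scale; edgeR adjusted p = 0.00491). The DESeq2 value without these libraries was -2.10 ± 0.28 (SE; DESeq2 adjusted p = 2.79e-11). Without them DESeq2 called 4.23% and edgeR 1.75% of tested genes lower. The background also moved when 1 library was left out, with 216 genes lower without eYFP- replicate 3 against 406 with all libraries, and with 181 higher without eYFP- replicate 2 and 12 without eYFP- replicate 3, against 33.

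The remaining members gave no call between the origins. Axl (0.25 ± 0.71), Mertk (0.55 ± 0.95), Gas6 (0.11 ± 1.69), Cd300lf (0.30 ± 0.32), Elmo1 (0.22 ± 0.24) and Dock1 (0.62 ± 0.50) had log2 fold changes, given with SE, that were within or near their error. Gulp1 had the largest, -3.08 ± 1.08 (SE), with a DESeq2 adjusted p of 0.137 (edgeR adjusted p = 0.534). Without both GC-poor libraries Axl was at 0.60 ± 0.31 and Mertk at 0.95 ± 0.49 (SE) on the log2 scale, with DESeq2 adjusted p of 0.36 and 0.356. With the errors that Axl, Mertk and Gas6 had over all libraries, a 2-fold difference between the origins was not detectable.

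Markers of other cells moved in the same direction as Mfge8. In eYFP+ macrophages DESeq2 called lower 2 of 10 erythroid, 4 of 10 neutrophil, 4 of 8 dendritic cell, 1 of 10 T and NK cell, 1 of 6 tested platelet, 1 of 6 tested eosinophil, basophil and mast cell and 2 of 4 tested monocyte markers, and 0 markers of these lists higher. The monocyte list summed to 20.6 to 36.8 TPM in eYFP+ and 26.5 to 94.5 TPM in eYFP- macrophages, the dendritic cell list to 4.64 to 11.2 and 23.2 to 41.9 TPM, and the erythroid list to 9021 to 14518 and 22456 to 35236 TPM. By ratio, the widest gap was in the eosinophil, basophil and mast cell list, with 13.6 to 20.9 TPM in eYFP+ and 268 to 1341 TPM in eYFP- macrophages. The T and NK cell list summed to 7.97 to 21.8 and 59.5 to 121 TPM and the neutrophil list to 123 to 200 and 240 to 2619 TPM, also without overlap. Of these lists only the platelet marker Gp1bb was at 0 throughout a macrophage group, the eYFP+ one. The part of RNA from these other cells in the Mfge8 difference was not tested.

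The monocyte comparison asked whether the genes differed with Ly6C. Only Cd300lf was called with all libraries, as higher in Ly6Chi monocytes, at 1.37 ± 0.33 (SE; DESeq2 adjusted p = 0.00088; edgeR adjusted p = 0.0135) in log2 units and at 1.57 ± 0.23 (SE; DESeq2 adjusted p = 9.15e-10) without both GC-poor libraries. Over all tested genes 3.74% were called higher and 5.08% lower in Ly6Chi monocytes, against 1 and 0 of 9 members. Dock1 (0.98 ± 0.50) and Elmo1 (-0.49 ± 0.24, SE, on the log2 scale) were not called (DESeq2 adjusted p = 0.239 and 0.222). Their groups did not overlap. The share of all genes without overlap was not counted in any comparison, so non-overlap only describes these libraries. Mertk was called lower only without Ly6Clo replicate 2, as given above. Mfge8 (0.63 ± 0.50), Gas6 (-0.97 ± 1.69) and Pros1 (-0.33 ± 0.37) were within or near their error, with SE on the log2 scale.

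The GC-poor libraries bore unequally on the members. In Ly6Clo replicate 2 Gas6 was at 0, Mertk at 0.0123, Axl at 0.0725 and Mfge8 at 0.357 times the mean of the other Ly6Clo libraries. Pros1 was at 2.30, Cd300lf at 1.46, Elmo1 at 1.41 and Dock1 at 1.04 times. In eYFP+ replicate 1 Gas6 stood at 0.128, Mertk at 0.268, Mfge8 at 0.312 and Axl at 0.356 times the mean of the other eYFP+ libraries. Dock1 stood at 0.491, Elmo1 at 0.784, Pros1 at 1.42 and Cd300lf at 1.67 times. Gas6, Mfge8 and Axl have the highest GC content of the 8 members plotted, at 56.6%, 56.2% and 54.2%, and Pros1 the lowest at 43.4%. Cd300lf, Dock1, Mertk and Elmo1 lie between, at 50.6%, 48.6%, 48.1% and 46.9%, so the ratios did not follow the order of GC content.

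**Figure D4:**
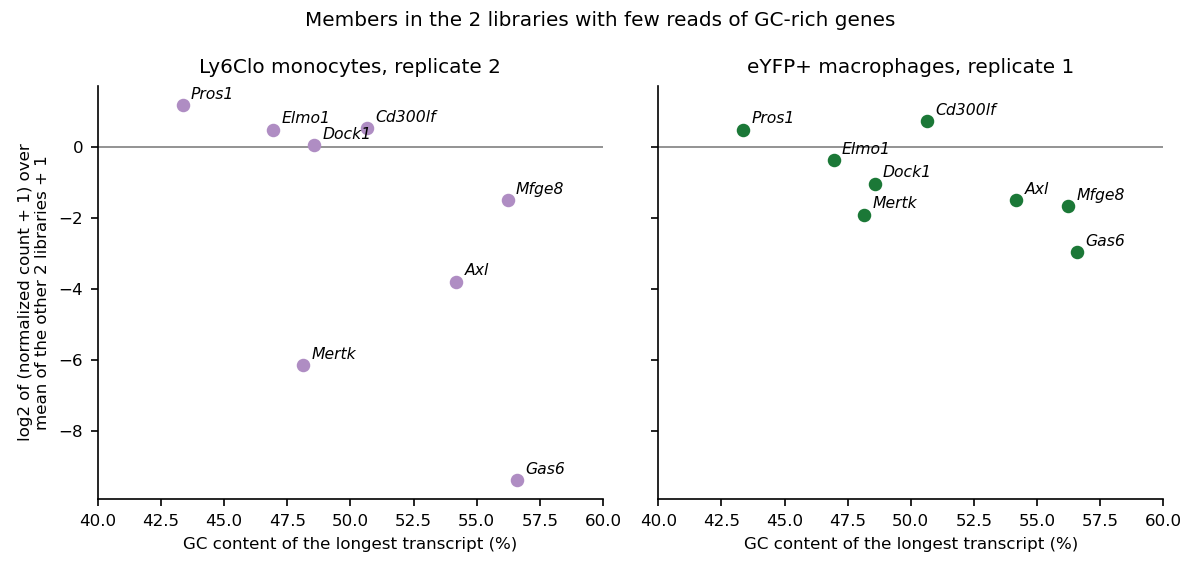
Log2 ratio of a member's normalized count plus 1 in the GC-poor library to the mean plus 1 of the other 2 libraries of its group, against the GC content of its longest transcript, for Ly6Clo replicate 2 (left) and eYFP+ replicate 1 (right); the 2 rarest members, Tyro3 and Gulp1, are left out. Axl, Mfge8 and Gas6 lie below 0 in both libraries, and Mertk, with 48.1% GC, lies below them all but Gas6 in Ly6Clo replicate 2.

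Genes whose levels followed the members most closely were sought by Pearson r of log2(normalized count + 1) over the 12 libraries among 10915 genes. Axl was most like Adcy3 (r = 0.995), Samd4 (0.991) and Vav2 (0.991), and Mertk like Ptprm (0.993), Adcy3 (0.992) and Samd4 (0.989). Gas6 was most like Farp2 (0.973), Pros1 like Ncoa1 (0.985), Mfge8 like Ptpn7 (0.963), Cd300lf like Pira2 (0.971) and Dock1 like Relch (0.975). Among the members, r was 0.986 for Axl and Mertk, 0.902 for Axl and Gas6 and -0.949 for Axl and Pros1. These values are descriptions: the points share their groups and the GC-poor libraries, and the macrophage and monocyte levels form separate clusters.

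The wider pathway was read from 71 further genes in 6 lists, of which 69 were tested. Between macrophages and monocytes 24 were higher and 18 lower in macrophages, or 34.8% and 26.1% of those tested against 20.7% and 15.3% of all genes, with a median log2 fold change of -0.10 against 0.08 over all tested genes. Uptake receptors were changed in both directions, with 5 higher and 3 lower of 15 tested. Stab2 (7.64 ± 0.32), a scavenger receptor for phosphatidylserine, and Timd4 (7.21 ± 0.42), a phosphatidylserine receptor of resident macrophages, were higher on the log2 scale (SE), as was Itgb5 (2.05 ± 0.20), a chain of an integrin that binds Mfge8. Cd300lb (-4.69 ± 0.25) and Cd300ld (-3.13 ± 0.28), relatives of Cd300lf, and Itgb3 (-3.43 ± 0.50), the other integrin chain, were lower. Thus within the CD300 family Cd300lf was higher in macrophages, 2 relatives were lower and Cd300a was not called with all libraries (-0.24; DESeq2 adjusted p = 0.082) but was called lower without both GC-poor libraries (-0.28; DESeq2 adjusted p = 0.0261) and with GC correction (-0.29; DESeq2 adjusted p = 0.0296).

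Bridging proteins and engulfment genes also split. C1qb, C1qc and C1qa, the chains of complement C1q, were higher in macrophages by log2 fold changes of 6.36 ± 0.26, 7.37 ± 0.33 and 6.53 ± 0.39 (SE). Thbs1, encoding thrombospondin, and Lgals3, encoding galectin-3, were called lower (-5.40 ± 1.12 and -0.87 ± 0.21), with libraries that overlapped. Mean normalized counts of Lgals3 were 22001 in macrophages, 22454 in Ly6Clo and 71048 in Ly6Chi monocytes. Those of Thbs1 were 59.4, 179 and 13154.5. The averaged monocyte level of both thus rested mainly on Ly6Chi cells. Of 16 engulfment genes 3 were higher and 7 lower, or 18.8% and 43.8% against 20.7% and 15.3% of all genes. The higher ones were Elmo3 (2.47 ± 0.27), Ptk2 (4.54 ± 0.37) and Abca1 (3.83 ± 0.33), a lipid exporter, and the lower ones included Dock5 (-2.94 ± 0.27), Abca7 (-2.96 ± 0.41), Rac2 (-0.98 ± 0.18), Elmo2 (-1.55 ± 0.41) and Dock2 (-1.34 ± 0.28; all SE). Of the Elmo family, Elmo2 was lower, Elmo3 higher and Elmo1 not called, and the genes were not tested against each other. Of 15 phagosome genes 3 were higher and 3 lower, or 20% each, near the background, with Dnase2a (2.76 ± 0.45), the nuclease that digests engulfed DNA, the first among the higher.

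All 8 tested genes of restraint and find-me sensing were called, 5 higher and 3 lower. That is 62.5% and 37.5% against 20.7% and 15.3% of all genes, in a list written with earlier results of these data known. Sirpa (1.74 ± 0.34), the receptor of the don't-eat-me signal Cd47, was higher in macrophages. Cd47 was called lower (-0.36 ± 0.15, DESeq2 adjusted p = 0.0407), with libraries that overlapped. Its mean normalized counts were 21063 in macrophages, 21917 in Ly6Chi and 33160 in Ly6Clo monocytes. Ly6Chi minus Ly6Clo monocytes gave -0.60 ± 0.21 (SE, DESeq2 adjusted p = 0.0439), which edgeR did not call (edgeR adjusted p = 0.117). P2ry2 (4.35 ± 0.66) and P2ry12 (3.93 ± 0.40), which sense nucleotides, were higher, and the lysophospholipid receptor Gpr132 (-5.67 ± 0.37) and the fractalkine receptor Cx3cr1 (-2.95 ± 0.37) were lower. Of 8 regulators 4 were higher and 0 lower, or 50% against 20.7% and 0% against 15.3% of all genes. Among the higher were Nr1h3 (4.46 ± 0.22), which encodes the sterol receptor LXR alpha and is known to drive Mertk, and Pparg (3.54 ± 0.27, SE on the log2 scale).

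Between macrophages of both origins the pathway gave 0 higher and 1 lower of 69 tested genes, that is 1.45% lower against 1.92% of all tested genes, a share near the background. The gene was Gpr132, with 17.2 normalized counts in eYFP+ against 94.5 in eYFP- macrophages in the mean. Its log2 difference was -2.45 ± 0.54 (SE), with an adjusted p of 0.000945 by DESeq2 and of 0.0983 by edgeR, not called. edgeR called 0 of these genes. Between monocytes 6 of the pathway genes were higher and 17 lower in Ly6Chi cells, or 8.7% and 24.6% against 3.74% and 5.08% of all tested genes, and edgeR called 1 and 13.

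Of the uptake receptors, 6 of 15 tested were lower in Ly6Chi monocytes and 0 higher, or 40% and 0% against 5.08% and 3.74% of all tested genes. Cd36 (-5.87 ± 0.41), a scavenger receptor, Cd300ld (-3.62 ± 0.39) and Itgb5 (-1.84 ± 0.29) led them on the log2 scale (SE), and Timd4 (-2.61 ± 0.61), Havcr2 (-1.55 ± 0.33) and Stab2 (-1.54 ± 0.47) were the others. Cd300lf, higher in Ly6Chi cells, ran opposite to Cd300ld. C1qb (-4.66 ± 0.38), C1qc (-4.40 ± 0.47) and C1qa (-4.71 ± 0.55) were lower as well, and Lgals3 (1.66 ± 0.29) and Thbs1 (6.20 ± 1.57; edgeR adjusted p = 0.0559) higher. Nr1h3 (-2.57 ± 0.31) and Pparg (-5.14 ± 0.38) were lower and Rxra (1.62 ± 0.47) higher. edgeR did not call Rxra (edgeR adjusted p = 0.0659) or Stab2 (edgeR adjusted p = 0.0838) between the monocytes. The macrophage marker list was also higher in Ly6Clo than in Ly6Chi monocytes, with 6 of 8 markers called and sums of 593 to 1083 against 480 to 553 TPM. Lists of other cells moved too. The dendritic cell list (4 of 8 called higher in Ly6Clo, 1 lower) summed to 647 to 2873 against 136 to 154 TPM. Without Cd209a its sums overlapped, at 109, 52.5 and 97.9 TPM in Ly6Clo against 53.5, 46.6 and 62.6 TPM in Ly6Chi. The platelet list (2 of 6 tested) summed to 60.3 to 77.4 against 2.14 to 4.08 TPM. Most of that sum was 1 gene, Pf4, with 67.1, 74.8 and 55.8 TPM in Ly6Clo. The stromal and endothelial list had 3 of 11 tested markers called. The part of macrophage RNA or of these cells' RNA in the differences was not tested.

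**Figure D5:**
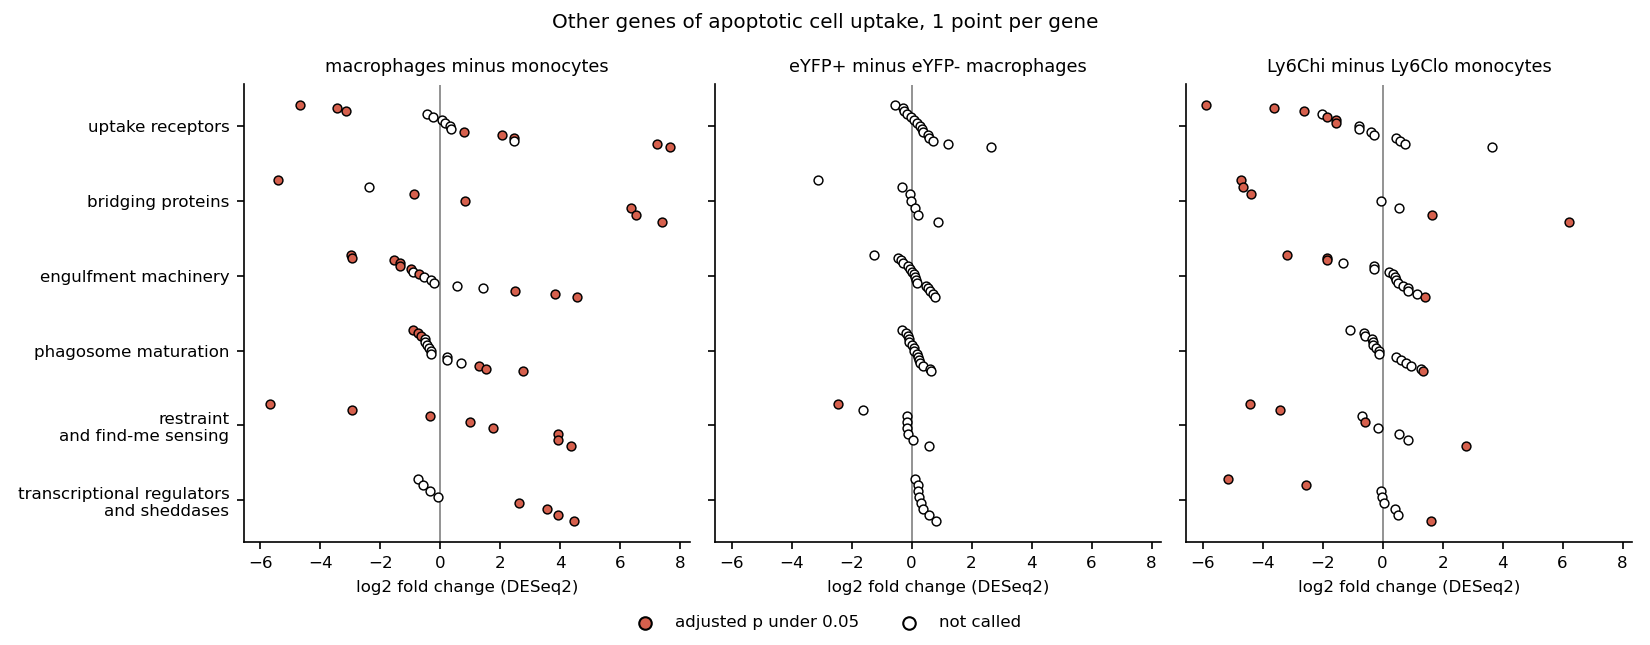
DESeq2 log2 fold changes of the other tested pathway genes, 1 point for each gene, in the 6 lists and 3 comparisons on a shared scale; filled points passed an adjusted p under 0.05. The macrophage to monocyte panel has 24 filled points above and 18 below 0, the panel of macrophage origins has 1 below 0 (Gpr132), and the monocyte panel has 6 above and 17 below 0.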

How the data were processed

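Polyadenylated RNA of sorted cells was reverse transcribed over its full length, amplified and sequenced from both ends. The authors trimmed reads with Trimmomatic and Cutadapt, used Rcorrector for sequencing errors and SortMeRNA to discard ribosomal reads, and ran segemehl for alignment to GRCm39 and its Ensembl annotation; conversion of raw data used bcl2fastq 2.20.0.422 per the labels. The authors deposited counts, which are whole read pairs assigned unambiguously to a gene by featureCounts, so reads shared between similar or overlapping genes are lost; use of strand is not stated. The authors also deposited TPM values, and a variance-stabilised table was not used. Amplified reads without molecular identifiers are not independent molecules, so a floor of 3 counts covers counting error only.

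Of the gene identifiers, 91.4% had a symbol in GENCODE M21, and all 10 members, 71 pathway genes and 86 markers were found. That annotation is of build GRCm38.p6, so only names, GC content and RefSeq promoter sequences were taken from that build. Groups and replicate numbers came from the titles. The members and lists were chosen with earlier results of these data known.

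The main test was that of DESeq2 1.42.0 (R 4.3.3), the study's tool, applied to the counts in 1 fit over the 12 libraries with group as the factor, median-of-ratios size factors, independent filtering and a Benjamini-Hochberg adjusted p under 0.05 over all genes tested. An adjusted p that DESeq2 did not set was left unset. Log2 fold changes are unshrunken. Of each pathway list, up to 3 genes per direction were named by adjusted p, and members were named whatever their values; a few further pathway genes (Cd300a, Elmo2, Dock2, Havcr2, Timd4 and Stab2 in monocytes) were named after their values were seen. Genes of like pattern needed a mean of at least 50 normalized counts. Alternatives were edgeR 4.0.16, no Cook's cutoff, TMM scaling, no independent filtering, at least 10 counts in at least 3 libraries, a fold change of at least 2, the replicate number as a block, each contrast fitted on its own libraries, limma 3.58.1 on log2(TPM + 1) and log2(TPM + 0.1), and leaving out each replicate in turn. After seeing the data, GC correction and leaving out both GC-poor libraries were added. DESeq2, edgeR and limma fits were checked on simulated data with known changes between the macrophage groups, where DESeq2 and limma, but not edgeR, made more false calls than the threshold allows, while edgeR recovered the fewest changes. Some genes that these rules would name are not reported here.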

Additional observations from a re-analysis of the deposited data

How the results depend on the processing

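Of the member calls between macrophages and monocytes, 7 with all libraries, the call of Gas6 was unset by DESeq2 without both GC-poor libraries, and no member call there was lost under any other alternative. The call of Mfge8 between the origins was lost with edgeR's quasi-likelihood test, with 0 members lower, and with edgeR and the replicate block, also 0. Leaving out each replicate in turn gave log2 fold changes of -2.90 to -2.09 for Mfge8 and kept its call. Members lower in Ly6Chi monocytes numbered 0 to 1 when replicates were left out, 1 without both GC-poor libraries and 1 with edgeR without them, Mertk each time.

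Of pathway genes higher in eYFP+ macrophages, 0 to 2 were called when replicates were left out (2 without eYFP- replicate 2) and 1 without both GC-poor libraries. Of those lower, 0 were called with edgeR, with edgeR and the block, with limma at either pseudocount and with edgeR without both GC-poor libraries, 2 in the fit on the contrast's libraries and 3 without both GC-poor libraries. Of those higher in Ly6Chi monocytes, edgeR called 1, edgeR with the block 1, no independent filtering 3, limma 3 at either pseudocount, edgeR without both GC-poor libraries 2, and leaving out replicates 1 to 7 (1 without Ly6Chi replicate 1, 1 without replicate 2, 2 without replicate 3, and 3 without Ly6Clo replicate 3). Of those lower, edgeR with the block called 11. With a fold change of at least 2 there were 11 pathway genes lower in macrophages than in monocytes.

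Differences that turned sign were not called under any setting. Leaving out replicates gave log2 differences between the origins of -0.042 to 0.60 for Axl and -0.37 to 0.61 for Gas6, which limma put at -0.40 and -0.41. Between monocytes it gave -0.40 to 0.54 for Axl (-0.40 without both GC-poor libraries, -0.41 with edgeR), -0.56 to 0.19 for Pros1 (0.19 and 0.18) and -0.81 to 1.46 for Gulp1, which was 0.015 with the replicate block, 0.028 with the block and a count minimum, 0.067 with edgeR and the block and 0.12 with the block and GC correction. Elmo1 in Ly6Chi monocytes minus eYFP- macrophages was -0.10 with limma at either pseudocount and -0.064 to 0.091 without a replicate.

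Same replicate numbers did not meet the criterion for paired samples: correlations of deviations were 0.392, 0.212 and 0.071 in macrophages and 0.284, 0.068 and -0.026 in monocytes, and replicate 3 did not correlate best with its own number. The replicate block with DESeq2 left the member calls of the 3 comparisons unchanged, and over all genes it gave 471 higher and 685 lower in eYFP+ macrophages, against 33 and 406 without it, and 1190 against 793 higher in Ly6Chi monocytes. With the block and a count minimum these counts were 27, 417 and 821, close to those without the block, and with the block and edgeR 0, 24 and 207. The step of Pros1 between eYFP+ macrophages and Ly6Chi monocytes lost its call with the block (DESeq2 adjusted p = 0.0849; edgeR adjusted p = 0.0598). Without the block, edgeR called 1 higher and 63 lower between the origins, and 348 and 481 against 793 and 1077 in monocytes. The rise with the block was thus absent where rare genes were left out, and the cause of the edgeR difference was not tested. With 3 libraries a group and the spread of the GC-poor ones, 2-fold differences of Axl, Mertk and Gas6 within a cell class were not detectable with all libraries.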
